A study of Mus musculus with 12 samples.

Results

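Potassium channel genes encode the membrane pores, and the subunits that attach to them, through which potassium ions leave or enter cells. They were selected from a gene expression table of mouse tumors and normal lung by their mouse symbols, which begin with Kcn and end in a family letter or letters and a number. Of the 92 genes with such a symbol in the annotation, 86 were among the 30399 genes of the table, and 84 of these reached a mean value of at least 1 over the 12 samples and were tested. Kcna10 and Kcne1 did not reach that level. Kcna3, Kcne3, Kcne4, Kcnj13, Kcnj15 and Kcnmb1 are not analysed here.

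The study, by its title, made mouse lung cancer models by nonviral CRISPR/Cas9 mutagenesis, and RNA was sequenced from 5 normal lungs and 7 tumors. The tissue labels say only normal lung or tumor. The titles of tumors 1 and 7 name the trachea, those of tumors 3 to 6 name the lung and that of tumor 2 names no site. The edited genes of the tumors, and the strain, age and treatment of the mice in either group, are not given in the sources used here. The 7 tumors carry 4 title numbers, with 2 tumors (3 and 4) under one number and 3 tumors (5, 6 and 7) under another. Whether tumors of one number come from one animal is not given in the labels, so p-values measure the spread between these samples. Values are normalized read counts, which the authors scaled for sequencing depth but not for gene length.

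Potassium channels set the resting potential and end action potentials. Voltage-gated channels open on depolarization, inward rectifiers pass current near rest, tandem-pore (also called two-pore) channels leak potassium at rest, and calcium-activated or sodium-activated channels respond to the ions that enter during activity. In normal lung, potassium channels of airway and alveolar epithelium provide the driving force for chloride secretion and fluid transport, those of pulmonary arteries set vessel tone, and neuroendocrine cells of the airway use them as oxygen sensors. Many of the other voltage-gated members are best known from neurons.

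Some features of the samples bear on every result. Total reads were between 11126432 and 17032234 per normal lung and between 13093843 and 24217633 per tumor. In the shallowest normal lung 3 reads were worth a value of 4.85. The summed level of 8 neuroendocrine markers was 162 to 253 in normal lung and 35320 to 138032 in tumors, and all 8 were called higher. Summed markers of endothelium (61763 to 71455 in normal lung, 2409 to 7380 in tumors), alveolar type 1 cells (36966 to 78682 against 571 to 1044) and alveolar type 2 cells (96796 to 157930 against 735 to 2335) were called lower gene by gene, 6 of 6, 4 of 4 and 4 of 4. Leukocyte markers were also lower (5 of 5 analysed, 81901 to 161759 against 321 to 10717). Lyz2 alone made up most of the normal lung sum (78689 to 157579). In tumor 7, Ptprc (3291) was above every normal lung (1988 to 3120). Cd68 (1419) and Cd3e (248) in tumor 7 were inside the normal range, and Lyz2 and Cd79a were below it. No marker was at 0 throughout a group. In tumor 7 the summed markers of smooth muscle and pericytes (12091), cardiac muscle (37925) and leukocytes (10717) were above those of the other 6 tumors, which reached 4581, 2727 and 2910. Y-linked transcripts were high in 4 of 5 normal lungs and in tumor 1 and near 0 elsewhere. In bulk tissue, fewer cells of a type and less RNA per cell cannot be told apart. These marker sums moved with the groups, and their part in the counts of channel genes was not tested.

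Of the 86 potassium channel genes, 42 (48.8%) were higher and 14 (16.3%) were lower in tumors, and 28 tested genes were not called. A gene was called when the limma adjusted p was under 0.05 and the difference was at least 1 on the log2(value + 1) scale. By the same rule 24.0% of all 23674 tested genes were higher and 24.5% were lower, 48.5% in all, against 65.1% of the members. The member shares, here and by class, count the 2 untested genes, Kcna10 and Kcne1, in the total. Every tumor lay above every normal lung for 32 channel genes (all tested genes, 20.1%), and every tumor lay below for 6 (all tested genes, 18.4%; both directions, 38.4%). The median difference over the 84 tested members was 1.34, against 0.04 over all tested genes, and it was 1.22 with the 13 members at 3 reads or fewer in each normal lung set at the bound that 3 reads allow. The annotated span of 17 members, introns included, overlaps that of another listed gene. Whether their exons overlap was not checked, and the use of strand in counting is not given in the sources used here. Any reads shared with the other gene therefore cannot be told apart. Members described below with such an overlap are Kcnab2, Kcnd3, Kcng2, Kcnh1, Kcnh7, Kcnip1, Kcnip4, Kcnj6, Kcnk1, Kcnk3, Kcnmb4 and Kcnn2. The other gene is on the same strand for Kcnip1 and on the opposite strand for the rest of these. For 8 members the mean in normal lung was under 1, so that they entered the test through the tumors alone, and 7 of these were called higher. In a count-based fit with edgeR that drops tumor 3, where 72 members passed the filter, 45 were higher and 8 were lower. Over all genes, that fit called 8385 of 18308 tested in either direction.

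Counts by class were as follows, beside the 48.5% of all tested genes called in either direction. Among voltage-gated pore-forming subunits 16 of 29 were higher and 5 lower, among silent subunits 4 of 10 higher and 2 lower, and among accessory subunits 6 of 9 higher and 1 lower. Inward rectifiers had 5 of 13 higher and 2 lower, tandem-pore channels 5 of 14 higher and 3 lower, and calcium- and sodium-activated channels 6 of 11 higher and 1 lower. The shares called in either direction were 72.4%, 60.0%, 77.8%, 53.8%, 57.1% and 63.6% in that order, and differences between classes were not tested. The median differences in the same order were 1.31, 1.23, 2.46, 0.60, 0.73 and 1.53. With members at 3 reads or fewer in normal lung set at their bound, the medians of silent subunits and tandem-pore channels became 0.67 and 0.25. Within families the split was uneven: the 3 Kcnab genes were higher, as were 6 of 8 Kcnh genes, whereas 3 of 7 Kcna genes were lower.

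**Figure D1:**
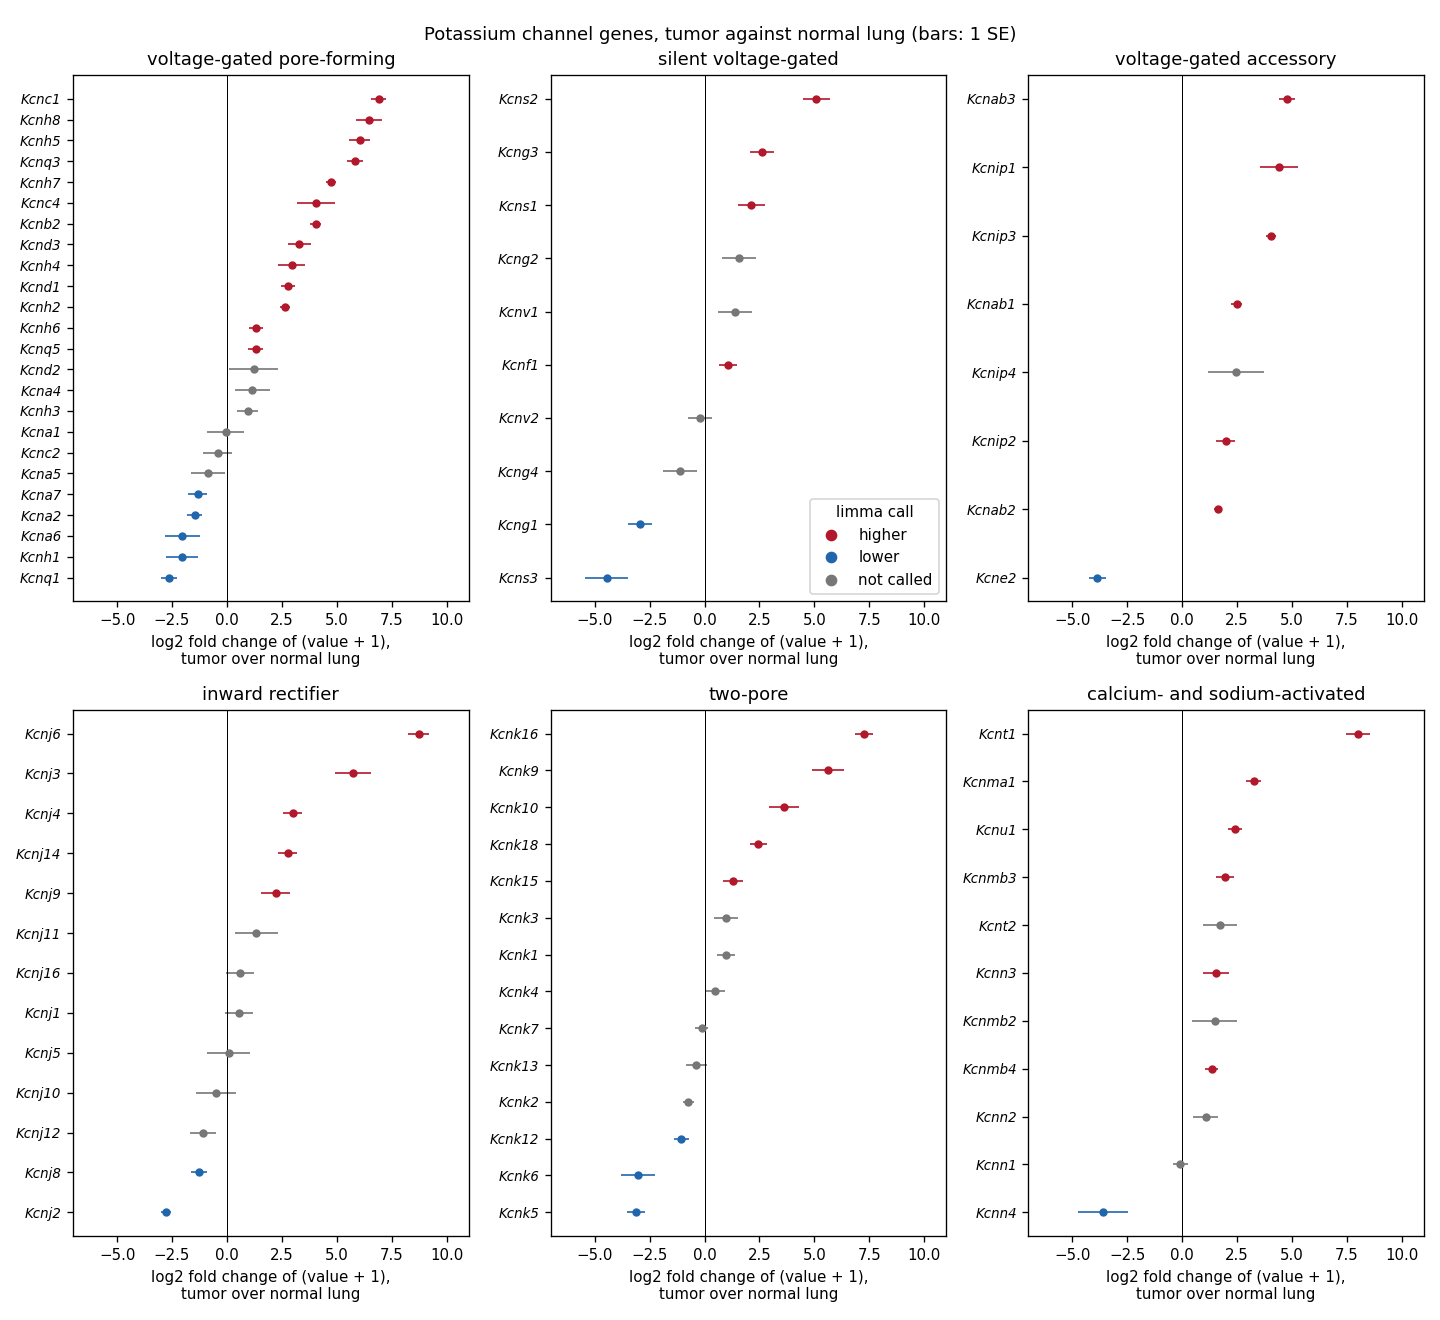
Difference between tumor (n = 7) and normal lung (n = 5) for 80 of the tested potassium channel genes, in log2(value + 1), with bars of 1 standard error from limma and the genes arranged by the 6 classes. Kcnj6 lies farthest to the right at 8.74 and Kcns3 farthest to the left at -4.45.

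The upstream sequences of the 2 members with the largest increases and the 2 with the largest decreases are shown. They were taken, across classes, from called members with separated groups and an entry in the RefSeq promoter table, which uses build GRCm38.p6. The table held 85 windows for 61 of the 86 members. Each window is the 250 bases before an annotated start, read on the gene's strand, and capitals mark the GC box GGGCGG on either strand. Kcnj6 and Kcnk16 were higher in tumors, and for Kcnj6 the first of its 2 windows is shown.

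Kcnj6, chr16:94997697-94997946, minus strand: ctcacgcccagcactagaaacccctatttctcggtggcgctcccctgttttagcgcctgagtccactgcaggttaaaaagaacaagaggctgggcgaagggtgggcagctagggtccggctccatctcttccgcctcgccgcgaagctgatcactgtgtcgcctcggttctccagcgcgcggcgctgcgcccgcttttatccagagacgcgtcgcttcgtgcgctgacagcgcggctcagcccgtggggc

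Kcnk16, chr14:20269270-20269519, minus strand: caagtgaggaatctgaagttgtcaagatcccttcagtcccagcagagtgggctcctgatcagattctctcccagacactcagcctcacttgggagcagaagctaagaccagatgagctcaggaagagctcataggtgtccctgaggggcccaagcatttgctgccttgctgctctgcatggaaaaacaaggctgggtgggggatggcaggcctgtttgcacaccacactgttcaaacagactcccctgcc

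Kcne2, of whose 2 windows the first is shown, and Kcnk5 were lower in tumors.

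Kcne2, chr16:92292139-92292388, plus strand: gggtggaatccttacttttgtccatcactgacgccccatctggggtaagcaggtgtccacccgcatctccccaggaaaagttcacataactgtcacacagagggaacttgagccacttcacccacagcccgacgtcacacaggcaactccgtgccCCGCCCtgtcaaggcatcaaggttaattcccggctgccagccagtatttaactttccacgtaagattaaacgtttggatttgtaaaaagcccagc

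Kcnk5, chr14:20181783-20182032, minus strand: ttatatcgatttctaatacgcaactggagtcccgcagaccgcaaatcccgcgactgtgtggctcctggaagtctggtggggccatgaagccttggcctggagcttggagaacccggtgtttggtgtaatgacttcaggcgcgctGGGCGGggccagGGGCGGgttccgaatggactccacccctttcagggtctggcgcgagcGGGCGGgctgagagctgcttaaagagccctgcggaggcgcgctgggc

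Kcnk16 and Kcnk5 start near each other on the same strand of chromosome 14 and moved in opposite directions. The 4 windows differ in composition. Kcnj6 has 26 CG dinucleotides and no GC box, Kcnk16 has 0 CG dinucleotides and no GC box, Kcne2 has 9 and 1, and Kcnk5 has 19 and 3. Over the windows of all members, the GC box was present in 21 of 41 windows of genes called higher (51.2%), 8 of 13 windows of genes called lower (61.5%) and 10 of 30 windows of genes not called (33.3%), against 32.7% of all 32851 windows of that length. The E-box CAGCTG was in 5 of 41, 2 of 13 and 12 of 30 windows, against 13.0% of all windows. The arm TTCAGCACC of the RE1 element was in 1 of 41 windows of genes called higher, that of Kcnh6, and in 0.301% of all windows, and TATAAA was, among members, in a window of Kcnj9 and a window of Kcnj16, against 12.4% of all. Both strands were searched, none of the 4 motifs contains another, and a match is a description of the letters.

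Among the voltage-gated pore-forming subunits, Kcnq3 (ENSMUSG00000056258) belongs to the M channel, a slow current that restrains repetitive firing of neurons. Kcnq3 had normalized counts of 11.6, 7.53, 24.2, 7.05 and 8.05 in normal lungs 1 to 5 and of 325, 670.2 and 1119 in the lowest, median and highest tumor. No tumor reached down to normal lung, and the difference was 5.84 ± 0.35 (SE, adjusted p = 1.46e-08). Kcnq5, also an M-channel subunit, was already abundant in normal lung, with 1395, 1222, 772, 1326 and 1826, and rose to 1649, 3005 and 7372 in tumors, a difference of 1.31 ± 0.36 (adjusted p = 0.00601). Tumor 7 alone lay within the normal range for Kcnq5. Kcnq1 (ENSMUSG00000009545), which pairs with Kcne subunits in epithelia and heart, moved the other way. Its values were 877, 767, 1009, 900.0 and 1106 in normal lungs and 71.5, 162 and 410.2 in tumors, so that every tumor was below every normal lung. The difference was -2.63 ± 0.37 (adjusted p = 3.96e-05). In mean normalized count per kilobase of exon, Kcnq1 was above Kcnq5 in normal lung, at 228 and 170.2, and below it in tumors, at 42.9 and 467.

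Kcnc1 (ENSMUSG00000058975), a rapidly gated channel of fast-spiking neurons, had 72.2, 37.6, 59.8, 16.9 and 46.0 in normal lungs and 2299, 6018 and 7256 in tumors. Tumor 7 was lowest and every tumor was above the normal range, with a difference of 6.91 ± 0.35 (adjusted p = 3.7e-09). Kcnc4 depended on 1 tumor for its mean. It had 10.3, 10.8, 12.9, 2.82 and 13.8 in normal lungs, 3436 in tumor 1 and 59.3 to 304 in the other 6 tumors, all above normal lung, with a difference of 4.06 ± 0.87 (adjusted p = 0.00116) and of 3.33 without tumor 1.

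Kcnb2, a delayed rectifier of neurons, was higher. It had 117.4, 95.7, 90.4, 113 and 183 in normal lungs and 1117, 2198 and 3014 in tumors, a difference of 4.05 ± 0.25 (adjusted p = 1.9e-08). Every tumor was above every normal lung. Of the Kcnd genes, which carry transient A-type current, Kcnd3 rose from 92.9, 73.1, 33.9, 52.2 and 72.4 to 162, 781 and 1428, with a difference of 3.30 ± 0.50 (adjusted p = 7.76e-05). Kcnd1 was also higher, by 2.78 ± 0.33 (adjusted p = 8.56e-06). Kcnd2 was not called by limma and is described with the variable genes.

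The Kcnh family, which includes the channels of the ether-a-go-go, Erg and Elk groups, had 6 genes higher, 1 lower and 1 not called. Kcnh2, the Erg channel that repolarizes the heart, had 321, 254, 249, 255 and 415 in normal lungs and 1382, 1691 and 3636 in tumors, a difference of 2.66 ± 0.23 (adjusted p = 4.99e-07). Kcnh7, a neuronal Erg channel, rose further, from 87.7, 68.8, 113, 76.2 and 83.9 to 1513, 2330.1 and 3792, a difference of 4.73 ± 0.23 (adjusted p = 2.11e-09). For both genes tumor 1 was the highest sample and no tumor reached down to normal lung. Kcnh8, an Elk channel, had 3.87, 8.60, 1.62, 0 and 2.30 in normal lungs and 107, 243 and 919 in tumors, a difference of 6.46 ± 0.61 (adjusted p = 9.48e-07).

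Kcnh5, an ether-a-go-go channel, was detected in normal lung 1 only, at 2.58 from 2 reads, and at 32.3, 93.0 and 191 in tumors. The ratio of the tumor mean to the pooled normal lung rate was 186 (95% exact Poisson interval 51.6 to 1540, which covers the counting error of the normal lung reads only), and the fitted difference was 6.05 ± 0.48 (adjusted p = 1.86e-07). The other ether-a-go-go gene, Kcnh1, went down, from 106, 97.8, 181, 95.9 and 155 to 2.38, 43.7 and 86.2. Every tumor was below every normal lung for Kcnh1, and the difference was -2.05 ± 0.72 (adjusted p = 0.0239). The Kcnh1 call was lost without normal lung 3 (-1.91) or 5 (-1.97) and in edgeR (-1.55).

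In the Kcna family, the shaker-type channels of axons, muscle and lymphocytes, the abundant member of normal lung was Kcna2. It had 552, 424, 237, 557 and 521 in normal lungs and 97.9, 141 and 293 in tumors, with tumors 3 and 7 above the lowest normal lung, and a difference of -1.47 ± 0.32 (adjusted p = 0.00145). Kcna6 and Kcna7 were lower by the same test but near the detection limit in most samples. Their means were 14.5 ± 4.90 and 17.5 ± 5.49 over the 5 normal lungs and 8.03 ± 16.04 and 6.90 ± 3.94 over the 7 tumors, each with its SD. For Kcna6 the highest sample was tumor 7, at 44.2, above the normal range of 10.3 to 22.6. The Kcna6 call was lost in edgeR (-0.47) and without any single one of 10 of the 12 samples. It was also lost under equal totals (-1.86) and with a pseudocount of 0.1 (-3.13). With a Y-linked covariate the calls of both Kcna6 (-2.21) and Kcna7 (-1.44) were lost. Kcna5, an oxygen-sensitive channel of pulmonary artery muscle, was at 11.6, 28.0, 21.0, 26.8 and 43.7 in normal lungs and at 2.97, 9.71 and 119.8 in tumors. Tumor 7 was the highest for Kcna5, as it was for the cardiac and smooth muscle markers, whose part in this value was not tested. The difference for Kcna5 was -0.85 ± 0.77 (adjusted p = 0.353), and it was -1.37 without tumor 7, 0.42 in edgeR and 0.33 in DESeq2, not called in any of them.

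**Figure D2:**
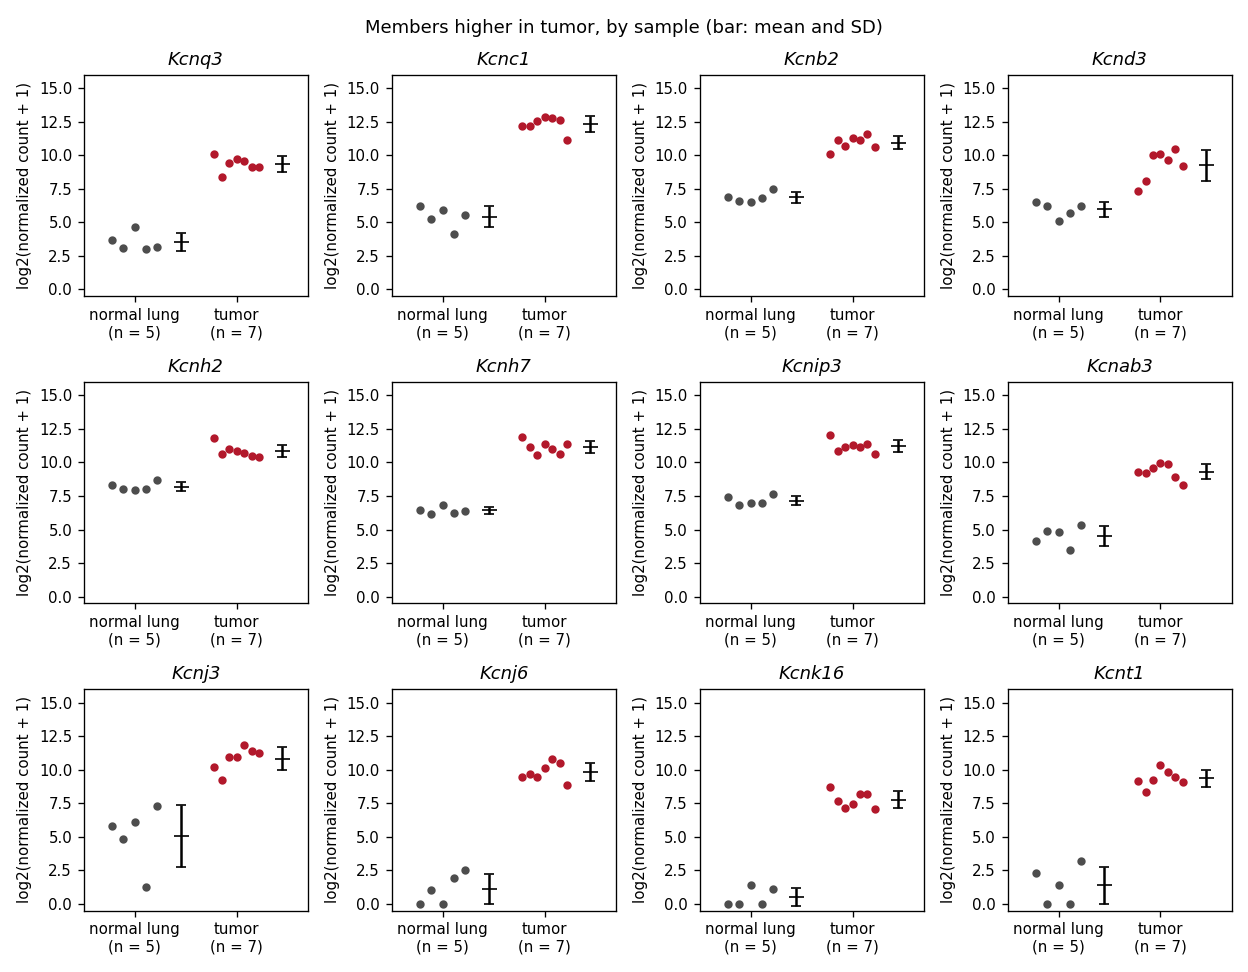
Normalized counts of 12 potassium channel genes called higher in tumors, on a log2(value + 1) axis, with 1 point per sample (5 normal lungs, 7 tumors) and the mean and SD of each group. In each panel the lowest tumor is above the highest normal lung.

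The silent subunits form no channel alone and change the gating of Kcnb channels. Kcns2 was found as 1 read in normal lung 1, a value of 1.29, and at 10.7, 41.6 and 191 in tumors, a fitted difference of 5.09 ± 0.62 (adjusted p = 1.02e-05). Its ratio of tumor mean to pooled normal lung rate was 228 (95% exact Poisson interval 40.9 to 8992). Kcns3 (ENSMUSG00000043673), the most abundant silent subunit of normal lung and one found in airway epithelium and pulmonary artery, had 536, 612, 451, 667 and 569 there. In tumors it had 7.60, 839.8, 3.97, 18.9, 12.1, 15.5 and 46.8 in tumors 1 to 7. Tumor 2 was above every normal lung and the other 6 tumors were below 50, and the difference was -4.45 ± 0.97 (adjusted p = 0.00134). Without tumor 2 it was -5.29, and in edgeR it was -1.77 and not called.

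Kcng1 fell from 43.8, 16.1, 38.8, 12.7 and 63.2 in normal lungs to between 0 in tumor 2 and 8.97 in tumor 7, a difference of -2.95 ± 0.56 (adjusted p = 0.000454). Kcng2 was not called (1.56 ± 0.76, adjusted p = 0.0887): tumor 7 was at 566 and the other tumors were at 17.8 to 99.1, with normal lungs at 8.46 to 40.4. Without tumor 7 the Kcng2 difference was 1.003, and it was called higher under quantile normalization (1.75), in edgeR (2.78) and in DESeq2 (2.67).

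The accessory subunits fell into groups by family. The beta subunits of the Kcnab family, which bind shaker-type channels in the cytoplasm, were all higher with no overlap of groups. Kcnab3 had 16.8, 29.0, 27.5, 9.87 and 40.2 in normal lungs and 318, 639 and 1014 in tumors, a difference of 4.77 ± 0.36 (adjusted p = 1.16e-07). Kcnab1 rose from 54.2, 48.4, 63.0, 59.2 and 73.6 to 219, 326 and 586 (2.48 ± 0.23, adjusted p = 1.03e-06), and Kcnab2 from 606, 572, 719, 512 and 506 to 1138, 1914 and 2384 (1.63 ± 0.19, adjusted p = 5.96e-06). Of their usual partners, the Kcna genes, limma called 0 of 6 tested genes higher (0 at an unadjusted p under 0.05). In the fits that drop tumor 3, edgeR called 0 of 4 and DESeq2 1 of 7.

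The Kcnip genes encode calcium-binding proteins that attach to Kcnd channels. Kcnip3, which is also known as a calcium-regulated transcriptional repressor, had 168, 114, 128, 123 and 197 in normal lungs and 1577, 2270.4 and 4300.5 in tumors, a difference of 4.06 ± 0.23 (adjusted p = 1.01e-08). Kcnip2 was higher by 1.99 ± 0.43 (adjusted p = 0.00131). Kcnip1 was at 39.98, 26.9, 30.7, 26.8 and 35.6 in normal lungs and at 31.7, 2242, 1386, 1837, 323, 1548 and 834 in tumors 1 to 7, a difference of 4.41 ± 0.86 (adjusted p = 0.000564). Tumor 1 alone stayed within the normal range for Kcnip1. Kcne2 (ENSMUSG00000039672), a single-span subunit that pairs with Kcnq1 in epithelia, was the 1 accessory gene that was lower. It had 593, 692, 578, 935 and 555 in normal lungs and 21.8, 43.6 and 84.2 in tumors, with no overlap and a difference of -3.86 ± 0.37 (adjusted p = 1.25e-06). Summed alveolar type 1 and type 2 markers were lower in every tumor too, and their part in Kcne2, Kcnq1 and Kcnk5 was not tested.

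Inward rectifiers moved in both directions. Of the subunits of the channels that G proteins open in neurons, heart and endocrine cells, Kcnj3, Kcnj6 and Kcnj9 were higher and Kcnj5 was not called. Kcnj6 (ENSMUSG00000043301) had 0, 1.08, 0, 2.82 and 4.60 in normal lungs and 462, 811 and 1773 in tumors, a difference of 8.74 ± 0.48 (adjusted p = 7.01e-09). Kcnj3, its usual partner, had 54.2, 28.0, 67.8, 1.41 and 159.8 in normal lungs and 593, 2012 and 3601 in tumors, a difference of 5.75 ± 0.81 (adjusted p = 4.22e-05). All tumors were above all normal lungs for both genes. Kcnj9, another subunit of this group, was lower in level, at 3.45 to 18.1 in normal lungs and 12.03, 36.7 and 162 in tumors, with a difference of 2.23 ± 0.66 (adjusted p = 0.01). Kcnj9 was not called with tumors of one title number averaged (1.66) or with a Y-linked covariate (1.52). Kcnj5, which pairs with Kcnj3 in the heart, was at 8.46 to 105 in normal lungs, 708 in tumor 7 and 5.66 to 64.7 in the other tumors, and was not called (0.08 ± 0.97, adjusted p = 0.948). Its difference was -0.62 without tumor 7 and 1.696 in edgeR, not called in either.

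Kcnj2 (ENSMUSG00000041695), the strong inward rectifier of endothelium, macrophages and muscle, had 562, 416, 578, 382 and 398 in normal lungs and 47.8, 63.1 and 109.5 in tumors. Each tumor was below each normal lung, with a difference of -2.76 ± 0.24 (adjusted p = 4.1e-07). Summed endothelial and leukocyte markers were lower in every tumor as well. The leukocyte markers Ptprc, Cd68 and Cd3e, however, were not below the normal range in tumor 7. The part of these cells in Kcnj2 was not tested. Kcnj8, the pore of the ATP-sensitive channel of pericytes and vascular muscle, had 178, 251, 265, 248 and 205 in normal lungs and 41.8, 89.2 and 231 in tumors. Tumor 7 was within the normal range, as its summed smooth muscle and pericyte markers were, and the part of those cells in the value was not tested. The Kcnj8 difference was -1.25 ± 0.36 (adjusted p = 0.00911), and in edgeR it was -0.93 and not called. Kcnj11, the ATP-sensitive pore of pancreatic beta cells and neurons, was spread from 15.5 to 93.1 in normal lungs and from 5.66 in tumor 5 to 624 in tumor 2, and was not called (1.34 ± 0.97, adjusted p = 0.247). It was called higher in DESeq2 (2.32) and without tumor 5 (1.98).

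The 5 tandem-pore channels that were higher had mean values of only 0.230 to 3.33 in normal lung. Kcnk16 (ENSMUSG00000023387), best known from pancreatic islets, was found as 2 reads in all normal lungs, with 0, 0, 1.62, 0 and 1.15, and at 132, 199 and 419 in tumors. Its ratio of tumor mean to pooled normal lung rate was 458 (95% exact Poisson interval 127 to 3785), and the fitted difference was 7.27 ± 0.40 (adjusted p = 7.41e-09). Kcnk9, an acid-sensitive leak channel of neurons and chemoreceptor cells, was found as 1 read in normal lung 5 and at 8.23, 92.2 and 226 in tumors, a ratio of 364 (interval 65.3 to 14377) and a fitted difference of 5.63 ± 0.74 (adjusted p = 2.23e-05). Kcnk10, a stretch-sensitive and lipid-sensitive channel, rose from 0 to 9.03 in normal lungs to 10.1, 28.3 and 97.7 in tumors (3.61 ± 0.68, adjusted p = 0.000429).

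The 3 tandem-pore channels that were lower were well expressed in normal lung. Kcnk5 (ENSMUSG00000023243), an alkaline-activated channel of epithelia, had 208, 285, 302, 259.6 and 200.04 in normal lungs and 10.9, 26.2 and 96.7 in tumors, with no overlap and a difference of -3.12 ± 0.41 (adjusted p = 2.19e-05). Kcnk6, found in vascular muscle and macrophages, had 573, 584, 972, 809.7 and 655 in normal lungs and 62.0, 26.2, 14.9, 69.2, 79.3, 230.5 and 913 in tumors 1 to 7, a difference of -3.05 ± 0.78 (adjusted p = 0.00395). Tumor 7, with the highest summed leukocyte and smooth muscle markers of the tumors, was inside the normal range. The difference without tumor 7 was -3.62, the edgeR value was -1.52 and not called, and the part of those cells was not tested. Kcnk12, a channel that is silent when expressed alone, had 371, 352, 181, 329 and 286 in normal lungs and 69.1, 123 and 237 in tumors. It was lower by limma (-1.05 ± 0.33, adjusted p = 0.0129). The call was lost with a Y-linked covariate (-0.46), and the difference was under the size required for a call under equal totals (-0.85), quantile normalization (-0.98) and without any single one of normal lungs 1 and 2 and tumors 2 and 7 (-0.88 to -0.99).

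The 2 most abundant tandem-pore channels of normal lung were not called. Kcnk3, also an acid-sensitive leak channel, had 1082, 1026, 832, 1409 and 1776 in normal lungs and 589, 1826, 7004, 8660.1, 1457, 1472 and 2728 in tumors 1 to 7. Tumors 3 and 4, which share a title number, were the highest, and the difference was 0.98 ± 0.55 (adjusted p = 0.139). Kcnk3 was called higher without tumor 1 (1.31) and without both trachea-titled tumors (1.34). Kcnk2, a mechanosensitive channel of alveolar epithelium and neurons, had 1235, 1499.8, 1061, 1543 and 1147 in normal lungs and 486, 659 and 1477 in tumors. Its difference of -0.74 ± 0.25 had an adjusted p of 0.0204 and was under the size required. Kcnk1, a weak inward rectifier of epithelia, was at 180.5 to 309.6 in normal lungs and at 149, 486 and 1264 in tumors (0.96 ± 0.42, adjusted p = 0.0592), and was called higher without tumor 7 (1.24), under equal totals (1.16), with tumors of one title number averaged (1.19), with a Y-linked covariate (1.51), in edgeR (1.17) and in DESeq2 (1.11).

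Calcium-activated and sodium-activated channels had 6 genes higher and 1 lower. Kcnt1 (ENSMUSG00000058740), a sodium-activated channel of neurons, had 3.87, 0, 1.62, 0 and 8.05 in normal lungs and 317, 609 and 1336 in tumors, a difference of 7.99 ± 0.55 (adjusted p = 4.74e-08). Kcnma1, the pore of the large-conductance calcium-activated channel, had 70.9, 46.2, 61.4, 42.3 and 102 in normal lungs and 309.6, 596 and 1009 in tumors, a difference of 3.26 ± 0.35 (adjusted p = 3.18e-06). Both had groups that did not overlap. Kcnmb4, the brain beta subunit of the Kcnma1 channel, rose from 73.5, 62.4, 32.3, 71.9 and 65.5 to 87.7, 162 and 206 (1.33 ± 0.28, adjusted p = 0.0009). Kcnu1, a relative of Kcnma1 known from sperm, rose from 10.3 to 29.9 in normal lungs to 64.0 to 136 in tumors (2.41 ± 0.31, adjusted p = 1.87e-05).

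Small-conductance and intermediate-conductance channels, the Kcnn genes, split. Kcnn3, a small-conductance channel of neurons and endothelium, had 442, 319, 506, 308 and 491 in normal lungs and 639, 199, 2555, 2088, 2392, 2766 and 676 in tumors 1 to 7, and was called higher (1.53 ± 0.58, adjusted p = 0.0341). That call was lost with tumors of one title number averaged (1.04) or correlated (1.35), with a Y-linked covariate (1.14), and without any single one of tumors 3, 4, 5 and 6 or of normal lungs 1, 2 and 4 (1.33 to 1.57). Kcnn4 (ENSMUSG00000054342), the intermediate-conductance channel of leukocytes and epithelia, had 303, 233, 559, 241 and 172 in normal lungs and 6.33, 90.5, 0, 19.8, 12.1, 39.1 and 459 in tumors 1 to 7. Tumor 7 was within the normal range, and its summed leukocyte markers were the highest of the tumors, whose part in the value was not tested. The Kcnn4 difference was -3.60 ± 1.13 (adjusted p = 0.0134), and in edgeR it was -1.40 and not called. Kcnn2, a small-conductance channel of neurons and heart, was at 50.8 to 97.7 in normal lungs and 23.8, 165 and 497 in tumors, and was not called (1.07 ± 0.57, adjusted p = 0.119), but was called higher without tumor 2 (1.48), with a Y-linked covariate (1.85), in edgeR (1.65) and in DESeq2 (1.59).

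**Figure D3:**
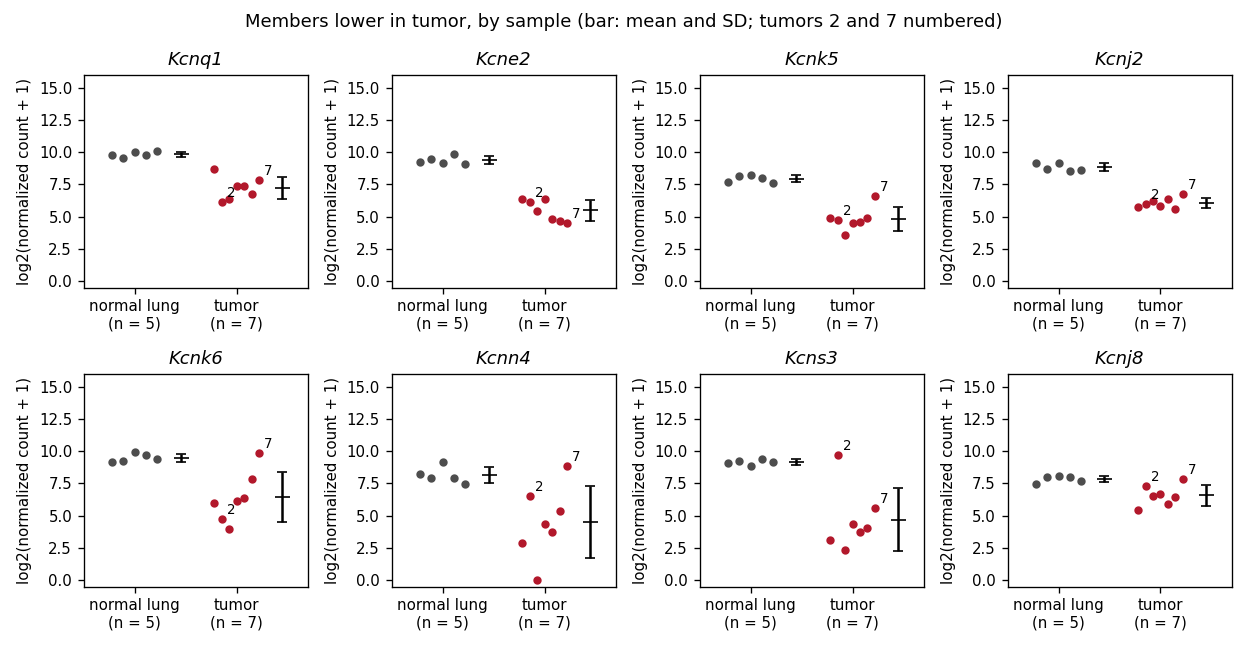
Normalized counts of 8 potassium channel genes called lower in tumors, on a log2(value + 1) axis, with 1 point per sample (5 normal lungs, 7 tumors), the mean and SD of each group, and tumors 2 and 7 numbered. Kcnq1, Kcne2, Kcnk5 and Kcnj2 show no overlap, tumor 7 lies in the normal range for Kcnk6, Kcnn4 and Kcnj8, and tumor 2 lies above it for Kcns3.

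Among genes with a tumor mean of at least 20, tumors differed among themselves more in potassium channel genes than over all tested genes. So did the normal lungs. This is a description, and the channel genes and all genes were not matched for level above that limit. The median SD of log2(value + 1) among tumors was 0.87 over the 69 members with a tumor mean of at least 20, against 0.50 over the 16512 genes at that level, and among normal lungs the same medians were 0.49 and 0.28. Of these 69 members, tumor 1 had the highest value for 20 and the lowest for 14. Tumor 2 had the highest for 7 and the lowest for 18, and tumor 7 the highest for 13 and the lowest for 18. Shares over all genes are not given for these counts. The widest spreads belonged to Kcnip4, Kcnmb2, Kcns3, Kcnd2 and Kcnn4.

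Kcnip4 (ENSMUSG00000029088), the most abundant channel subunit per kilobase in tumors, had 1446, 661, 1192, 1114 and 1319.8 in normal lungs and 6412, 41.7, 14736, 31115, 16800.4, 15483 and 9384 in tumors 1 to 7. In 6 tumors it was above every normal lung, and in tumor 2 it was below every normal lung. The difference was 2.45 ± 1.27 (adjusted p = 0.109), and Kcnip4 was called higher without tumor 2 (3.65) and, with tumor 2 kept, in edgeR (3.60) and DESeq2 (3.55). Kcnmb2, a beta subunit of the large-conductance channel that closes it over time, followed a like order, with 375, 352, 268, 300.5 and 306 in normal lungs and 532, 17.9, 1615, 2354, 2754, 3706 and 1128 in tumors. Tumor 2 was again below every normal lung and the other 6 tumors above, with a difference of 1.48 ± 1.03 (adjusted p = 0.226) by limma. Kcnmb2 was called higher without tumor 2 (2.41) and, with tumor 2 kept, in edgeR (2.52) and DESeq2 (2.47). Kcns3, given above, had the opposite arrangement. Kcnd2, an A-type channel, was at 47.7, 15.1, 32.3, 7.05 and 39.1 in normal lungs and 978, 266, 5.95, 31.4, 8.90, 17.5 and 164 in tumors 1 to 7. Tumors 1, 2 and 7 were above normal lung and the other 4 were not, and the difference was 1.21 ± 1.12 (adjusted p = 0.362), or 0.53 without tumor 1. In the count-based fits, which drop tumor 3, Kcnd2 was called higher (edgeR 3.21, DESeq2 3.14). Kcnd2 was high in tumor 1, where Kcnip1 was within the normal range, but in tumors 2 and 7 both genes were above normal lung.

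**Figure D4:**
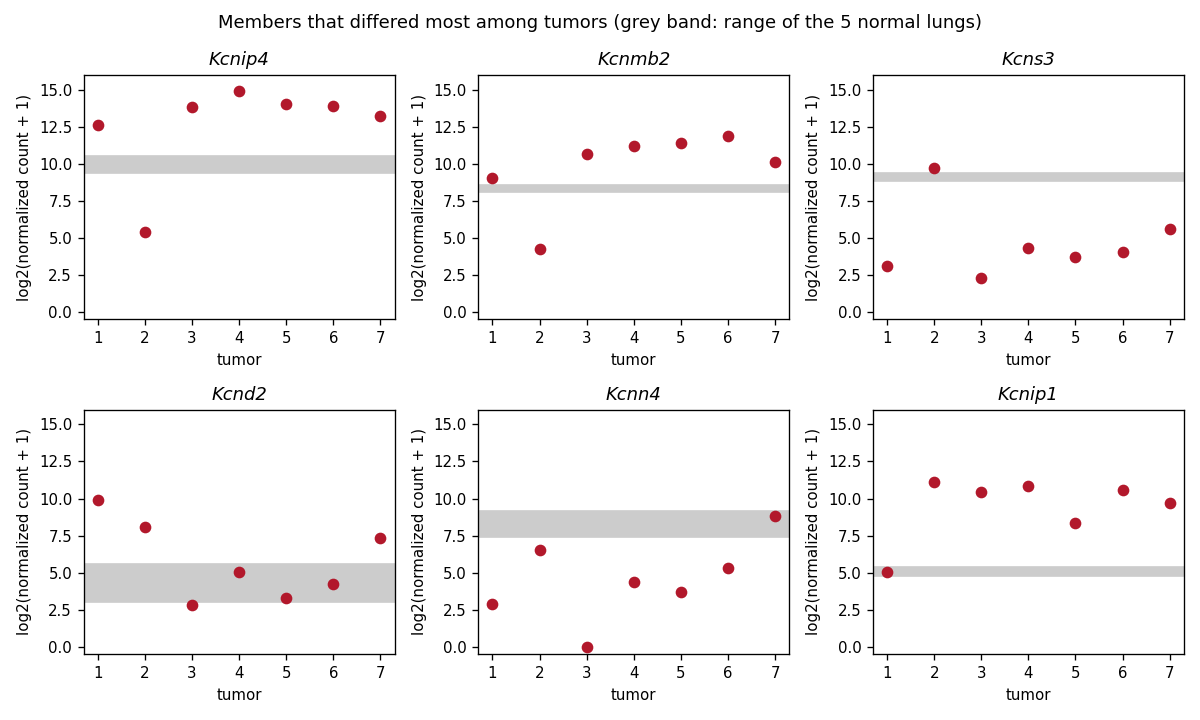
Normalized counts of 6 potassium channel genes that varied among tumors, on a log2(value + 1) axis, with 1 point for each of tumors 1 to 7 and a grey band for the range of the 5 normal lungs. Tumor 2 lies below the band for Kcnip4 and Kcnmb2 and above it for Kcns3, and tumor 1 is highest for Kcnd2 and within the band for Kcnip1.

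Levels were compared between genes per kilobase of exon. The summed level of the 86 members was 3485 to 4496 normalized counts per kilobase in normal lungs (median 3829) and 6558 to 19751 in tumors (median 13544). Accessory subunits took 747 to 989 in normal lungs and 1397 in tumor 2 to 10523 in tumor 4. Kcnip4 made up 81.5% of that sum in tumor 4 and 0.823% in tumor 2, and without it accessory subunits took 508 to 681 in normal lungs and 1093 to 2101 in tumors. Pore-forming voltage-gated subunits took 858 to 1634 and 2274 to 5593, and inward rectifiers 216 to 299 and 431 to 1068. Tandem-pore channels overlapped between the groups, at 1052 to 1316 in normal lungs and 976 to 2901 in tumors, as did calcium- and sodium-activated channels, at 220.5 to 283 and 239 to 1699.7, where tumor 2 alone was in the normal range. Silent subunits were at 190 to 230 in normal lungs, at 62.9 to 119 in 5 tumors, and at 306 in tumor 2 and 244 in tumor 7. Abundant members of normal lung by mean level per kilobase included Kcne2 (379.7), Kcnip4 (316), Kcnk3 (308), Kcnk2 (262) and Kcnq1 (228). In tumors abundant members included Kcnip4 (3701), Kcnk3 (853), Kcnip3 (706), Kcnc1 (577), Kcnmb2 (553) and Kcnq5 (467).

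**Figure D5:**
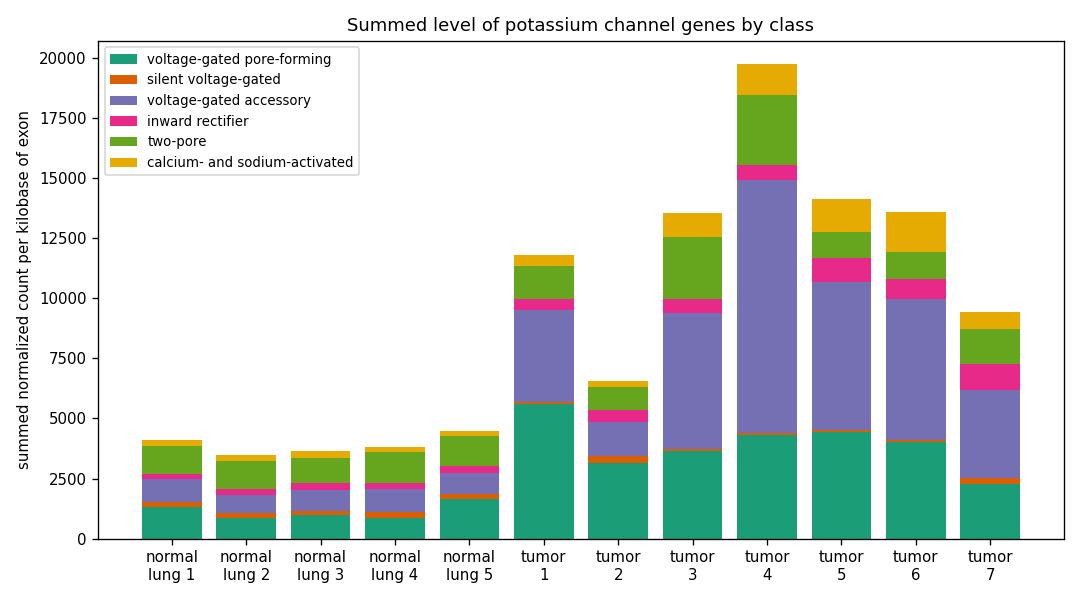
Summed level of the potassium channel genes in each of the 5 normal lungs and 7 tumors, in normalized counts per kilobase of exon, stacked by the 6 classes. Tumor 4 is the tallest bar at 19751, tumor 2 the shortest tumor bar at 6558, and normal lungs reach 4496.

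Genes that work with potassium channels were taken from a list of 29, of which 28 were tested, 13 were higher (44.8% of the list, against 24.0% of all tested genes) and 4 were lower (13.8%, against 24.5%). Hcn2, Hcn3 and Hcn4, pacemaker channels related to voltage-gated potassium channels, were higher with no overlap of groups. Hcn4 averaged 22.6 ± 8.54 over the 5 normal lungs and 1968 ± 949 over the 7 tumors (each with its SD), a difference of 6.28 ± 0.41 (adjusted p = 3.14e-08). Hcn2 and Hcn3 were higher by 4.28 ± 0.29 and 3.82 ± 0.31.

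Both Kcnd partners of the dipeptidyl peptidase-like family were higher: Dpp10 rose from 6.62 ± 3.44 to 833 ± 602 (6.61 ± 0.49, adjusted p = 1.08e-07) and Dpp6 from 290.4 ± 124 to 3642 ± 2060 (3.55 ± 0.40, adjusted p = 5.59e-06). Of the proteins that cluster Kcna channels on axons, Cntnap2 (7.14 ± 0.54), Lgi1 (6.85 ± 0.69), Adam22 (2.48 ± 0.16) and Dlg4 (2.30 ± 0.34) were higher. Lgi1 rested on 3 reads in normal lung, a ratio of 343 with a 95% exact Poisson interval of 117.3 to 1662. Ank3 was lower (-1.12 ± 0.31, adjusted p = 0.0067), a call lost under equal totals (-0.92), quantile normalization (-0.95), in edgeR (-0.77), in DESeq2 (-0.83) and without tumor 3 (-0.88). Abcc8, the regulatory subunit that pairs with Kcnj11, rose from 15.2 ± 14.6 to 436 ± 252 (5.10 ± 0.69, adjusted p = 2.85e-05), and Abcc9, which pairs with Kcnj8, had a difference of 0.26 ± 0.34 (adjusted p = 0.516).

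Lrrc26, a gamma subunit that lets the large-conductance channel open at rest in secretory epithelium, averaged 647 ± 230.1 over normal lungs and 56.6 ± 30.6 over tumors, a difference of -3.64 ± 0.44 (adjusted p = 1.03e-05), while its pore Kcnma1 was higher. Lrrc55, another gamma subunit, was lower by -2.14 ± 0.57 on the log2 scale (adjusted p = 0.00503). Atp1b1, a beta subunit of the sodium-potassium pump, was lower (-1.15 ± 0.15, adjusted p = 2.6e-05), but under the size required with equal totals (-0.94). Slc12a5, the chloride-extruding cotransporter of neurons, was the 1 cotransporter of 5 called, with 118 ± 25.1 and 1065 ± 448 and a difference of 3.07 ± 0.31 (adjusted p = 1.89e-06).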

How the data were processed

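The sources are RNA-seq values of 5 normal lungs and 7 tumors. The deposited table holds read counts divided by a size factor per sample, a normalized signal made by the authors. The submitters' processing notes name featureCounts, DESeq2 and build GRCm39. The aligner, the annotation and the use of strand are not given in the sources used here. Whole reads were recovered for 11 columns (100.0% of values whole within 0.05). The size factor of tumor 3 was too close to 1 for the recovery to be checked, so count-based fits drop tumor 3. No column was left unmapped (0). Symbols were taken from GENCODE M21, which named 29982 of 30399 identifiers and whose exon lengths gave levels per kilobase.

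The test was limma 3.58.1 in R 4.3.3 (lmFit, and eBayes with trend) on log2(value + 1) over 23674 genes with a mean of at least 1, with Benjamini-Hochberg adjustment over all of them. A call needs an adjusted p under 0.05 and a difference of at least 1 on that scale, which understates the change of low genes. Python 3.11.15 was used for summaries. The scripts were tested on simulated data. Alternatives were edgeR 4.0.16 and DESeq2 1.42.0 on the recovered reads of 11 samples (8385 and 10444 genes called), filters, a pseudocount of 0.1, equal totals, quantile normalization, tumors of one title number averaged or correlated, a Y-linked covariate, no trachea-titled tumors, and each sample left out. Dropping tumors 2 and 7 together was added after seeing the data. No 2 samples of a group agreed within sampling noise (31 pairs, chi-square per degree of freedom of at least 19.8).

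The members, classes, partners and markers were chosen with earlier results of these data known. Named genes are, in each class, up to 4 called members in each direction whose groups are fully separated and whose mean is at least 20, the most abundant member not called, the 5 with the largest SD among tumors, a list of members with roles in lung or neuroendocrine cells, and called partners. The rule named 36 of the members reported, and 18 more were named after their values were seen: Kcnq3, Kcnq5, Kcnb2, Kcnh7, Kcnd1, Kcnd3, Kcna2, Kcna6, Kcna7, Kcnc4, Kcnip1, Kcnip2, Kcnj9, Kcnj5, Kcnk6, Kcnk12, Kcnn3 and Kcng1. The markers Actc1 and Itgam are not analysed here. Counts cover all members, and a few members and partners are not reported individually. Cardiac muscle markers had 0 of 6 analysed called by limma, ciliated markers 2 of 4 lower, smooth muscle and pericyte markers 5 of 7 lower, glial markers 1 of 4 higher and 1 lower, and autonomic neuron markers 2 of 4 higher.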

Additional observations from a re-analysis of the deposited data

Results flagged for a closer look

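In 11 cases 1 sample stood apart from the rest of its group for a named gene by Dixon's criterion. For genes picked without regard to spread and well above 0, about 1 in 20 comparisons would be flagged by chance, or 5.4 here. The 11 cannot be set against that number. Kcnip4 and Kcnmb2 were named for their spread among tumors, and Kcnc4 and Kcng1 after their values were seen. Tumor 7 was lowest for Kcnc1 at 2299 (other tumors 4598 to 7256). Tumor 2 was lowest for Kcnip4 at 41.7 (6412 to 31115), for Kcnmb2 at 17.9 (532 to 3706) and for Kcng1 at 0 (2.69 to 8.97). Tumor 1 was highest for Kcnh2 at 3636 (1382 to 2044) and for Kcnc4 at 3436 (59.3 to 304). Among normal lungs, normal lung 1 was highest for Kcnh5 at 2.58 and for Kcns2 at 1.29, and normal lung 5 for Kcnk9 at 1.15, where the other normal lungs were at 0 and these values are 1 or 2 reads. Normal lung 3 was lowest for Kcnmb4 at 32.3 (62.4 to 73.5), and normal lung 4 was lowest for Kcnc4 at 2.82 (10.3 to 13.8).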

How the results depend on the processing

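No paired analysis was possible because no title number is shared by a normal lung and a tumor. Over 69 named genes, 1571 of 1650 alternative values stayed on their side of the threshold, 49 lost a call and 30 gained one, 0 called values changed sign, and 49 genes stayed on their side under every alternative run. The count of members higher stayed between 40 and 46, and of members lower between 12 and 14, when each sample was left out. Voltage-gated pore-forming subunits called lower numbered 3 with a Y-linked covariate, 3 in edgeR and 3 to 5 with a sample left out (3 without normal lung 3 or 5). In edgeR the members lower were 8, silent subunits lower 1 and inward rectifiers lower 1. Silent subunits lower were also 1 in DESeq2, which gave Kcns3 no adjusted p. Calcium- and sodium-activated channels lower were 0 in edgeR, with 0 at an unadjusted p under 0.05, against 1 by limma, Kcnn4. They were 0 in DESeq2 too, but DESeq2 gave Kcnn4 no adjusted p, so that this 0 is not a test result. With a mean of at least 10, silent subunits higher were 2 and tandem-pore channels higher 3, since fewer genes were tested. Partners lower were 2 under equal totals, which moves the median of all genes by 0.19 (edgeR 0.17). The cause of the other changes was not tested. Depth limits members at 3 reads or fewer in normal lung, whose fitted differences depend on the pseudocount. Intervals cover counting error only.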
